A study of Mus musculus with 9 samples.

Results

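The 9 complement genes described here were C1qa, C1qb, C1qc, C3, Cfb, Cfp, C3ar1, C5ar1 and Cd55, taken by symbol from the 23238 symbols of the count tables. Each was listed once, and all 9 were among the 10107 genes that passed the expression filter. The libraries were 3' RNA-seq of monocytes sorted on day 1 from female wild-type C57BL/6N mice, which the study's methods give as 12 weeks old for the NMO-like model. Nor_Bl_mono was blood of normal mice, NMO_Bl_mono was blood of mice injected in the striatum with patient NMO-IgG and human complement (hC), and NMO_Br_mono was the brain of such mice, with 3 libraries a group and a pool of 5 mice behind each library. The sort kept CD45+ CD11b+ P2ry12- Ly6G- cells with high Ly6C, so the transcripts of these markers are no independent reading of the gate. Neither brain monocytes of normal mice nor any monocytes of mice given control IgG with hC were among these libraries. Blood cells were separated on a density gradient and brain cells by tissue dissociation, so tissue and isolation procedure cannot be told apart, and the effect of NMO-IgG on brain cells cannot be told apart from that of being in the brain.

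Complement is a cascade of plasma and locally made proteins that tags targets for uptake, attracts leukocytes and can open pores in membranes. In neuromyelitis optica, antibodies to the astrocyte water channel aquaporin-4 engage C1q, which starts the classical pathway and leads to cleavage of C3 and C5. The mouse C1q genes are expressed mainly by macrophages and microglia, while properdin, C3 and the anaphylatoxin receptors are made by many myeloid cells. Because the injected complement was human protein, its mRNA is not part of these libraries.

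C1qa, C1qb and C1qc, which encode the 3 chains of the C1q recognition molecule, lay side by side on the minus strand of chromosome 4 in GRCm38 (mm10), within 18.7 kb. In GENCODE M21, C1qb spanned 136880129 to 136886187, C1qc spanned 136889804 to 136893065 and C1qa spanned 136895917 to 136898803, and no other annotated gene overlapped them. All 3 genes were found in every brain library, but the RefSeq promoters used here held no entry for C1qa. The promoters of C1qb and C1qc, 250 bases before to 50 after the start in RefSeq (GRCm38.p6), are shown. Both hold the letters AGGAAGT of a PU.1-type ETS site on the opposite strand, and the capitals mark that match. PU.1 is the ETS factor that myeloid cells depend on.
C1qb, chr4:136886151-136886450, minus strand: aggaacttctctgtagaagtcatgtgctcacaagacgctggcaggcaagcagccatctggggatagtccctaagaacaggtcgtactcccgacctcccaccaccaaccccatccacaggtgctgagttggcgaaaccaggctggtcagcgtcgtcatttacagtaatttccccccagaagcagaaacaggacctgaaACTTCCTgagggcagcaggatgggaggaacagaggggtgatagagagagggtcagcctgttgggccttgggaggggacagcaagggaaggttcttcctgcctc
C1qc, chr4:136892865-136893164, minus strand: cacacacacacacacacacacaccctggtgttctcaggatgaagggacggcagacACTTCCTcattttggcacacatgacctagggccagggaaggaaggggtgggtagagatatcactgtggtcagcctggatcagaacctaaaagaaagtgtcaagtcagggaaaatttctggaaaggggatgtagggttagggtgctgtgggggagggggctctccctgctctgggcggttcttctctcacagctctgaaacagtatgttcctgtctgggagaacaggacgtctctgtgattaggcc
The match begins 53 bases before the start in C1qb and 195 bases before it in C1qc. Both distances are from the RefSeq starts, which differ from those of the GENCODE spans above, so they depend on the annotation. The match was also found, at 190 and 72 bases before the start, in C5ar1, and so in 3 of the 7 members with a RefSeq promoter, against 9.35% of 32851 promoters of 300 bases. Also searched, on both strands, were the IRF-ETS composite GGAANNGAA (8.24% of promoters), the MAF half-site TGCTGAC (4.67%), the C/EBP-type site TTGCNNAA (10.8%) and the TATA box TATAAA (13.6%). Of the members, Cd55 held the MAF half-site, C3 held the C/EBP-type site and, with C3ar1, the TATA box, and none held the composite. None of these matches overlapped another. These matches are letters in a window, and no binding was measured.

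Total counts ranged from 7584649 to 10419647 per library, so a count of 3, the floor used here, equalled 0.273 to 0.432 CPM (counts relative to library size, scaled by TMM factors). The counts were uneven. Among genes that reached 50 CPM in each of its group's other libraries, 22.3% were at or under the floor in NMO_Bl_mono replicate 3 and 8.26% in NMO_Br_mono replicate 2, against at most 1.94% in the other 7. With a common dispersion of 2.87, a few members were at 0 in 1 library and well counted in the next. Ly6c2, the transcript behind the Ly6C gate, was found in all 9 libraries, at 462 to 933 CPM in blood and at 437, 59.4 and 199 CPM in NMO_Br_mono. In these bulk libraries, fewer cells of a type and less RNA per cell cannot be told apart.

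**Figure D1:**
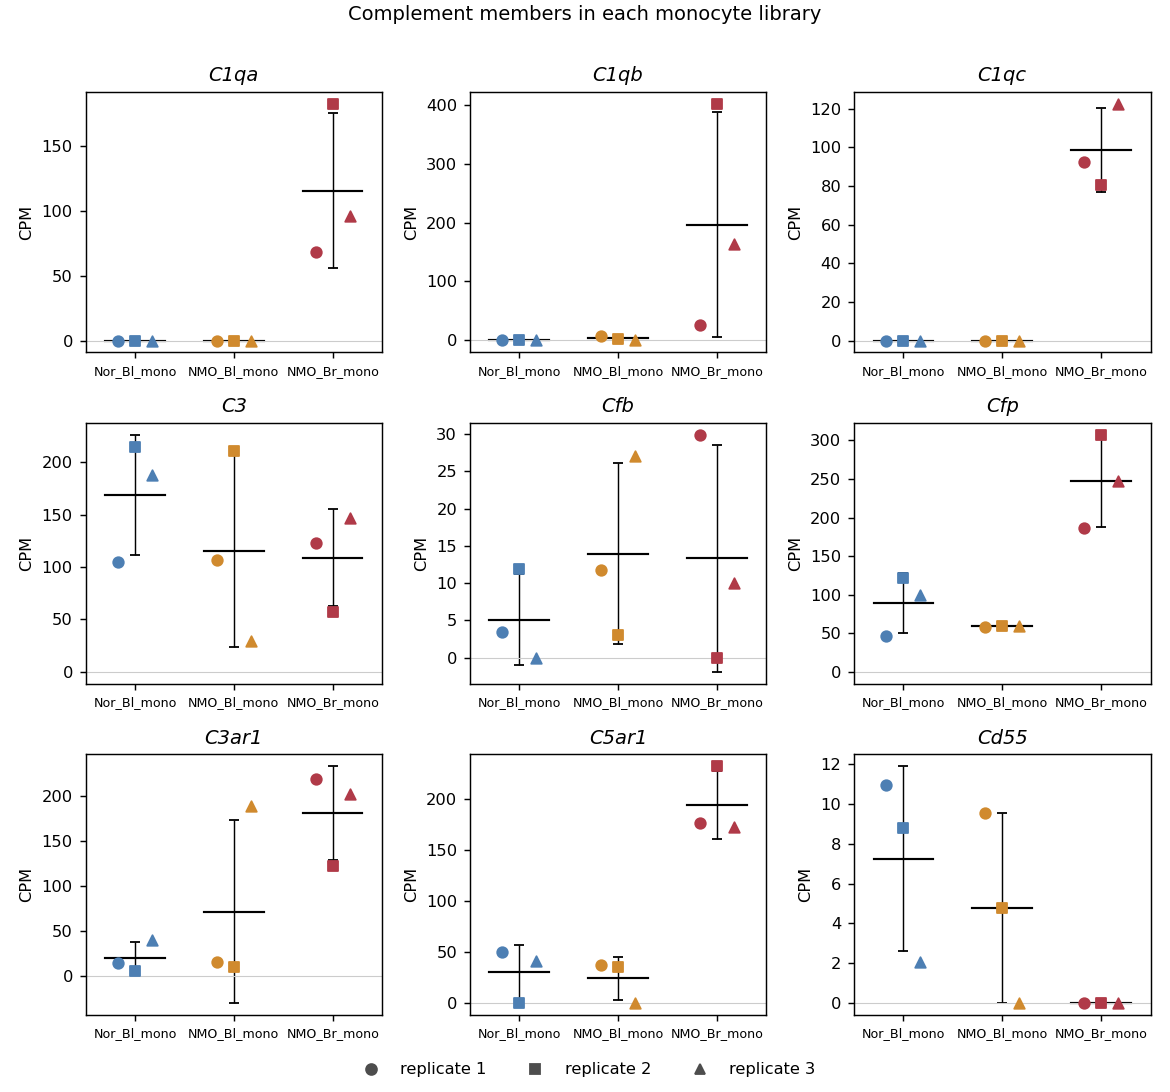
CPM (y axis, from the counts with TMM scaling, a separate linear scale for each gene) of the 9 complement members in each library, with the symbol for the replicate, a line at the group mean and a bar of 1 SD (n = 3). The C1q genes are at or near 0 in every blood library and found in all 3 brain libraries, while C3 and Cfb overlap between the groups and Cd55 is found only in blood.

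The C1q genes were the members that passed the test, in the comparison with both blood groups. C1qa had 0 counts in all 6 blood libraries and stood at 67.9, 182 and 96.1 CPM in NMO_Br_mono replicates 1, 2 and 3. C1qc likewise had 0 counts in all 6 blood libraries and 92.5, 80.4 and 122 CPM in the brain libraries. C1qb was at 24.8, 403 and 163 CPM in NMO_Br_mono. Unlike its neighbours it was also counted in blood, at 7.14 and 1.2 CPM in NMO_Bl_mono replicates 1 and 2, with 0 in replicate 3 and in the 3 Nor_Bl_mono libraries. No brain value of a C1q gene overlapped a blood value. For C1qa and C1qc this follows from the expression filter, which they passed only through the brain libraries.

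Against the mean of both blood groups, the C1q genes rose in NMO_Br_mono. With the blood libraries at the floor of 3 counts per library, C1qa was at least 334-fold higher (adjusted p = 0.0139, edgeR's quasi-likelihood test with Benjamini-Hochberg adjustment over 10107 genes) and C1qc at least 285-fold higher (adjusted p = 0.0207). Every such bound in this text takes a count of 0 as a level at or under the floor. The uneven counts, with 22.3% of well-counted genes at or under the floor in NMO_Bl_mono replicate 3, do not ensure this. C1qb had a log2 fold change of 9.99 ± 1.68 (SE, adjusted p = 0.0263). That estimate averages 6.15 against NMO_Bl_mono and 13.8 against Nor_Bl_mono, where every count was 0, so its size is uncertain. The mean of C1qb was 197 CPM in NMO_Br_mono and 1.39 CPM in blood. The C1q genes were 3 of the 14 genes called higher in this comparison, which is 0.139% of the genes tested. C1qa and C1qc entered the test only through their brain libraries, and C1qb was above the floor in only 2 blood libraries. Their place among these 14 is therefore a description. None of the other 6 members was called. With the 6 blood libraries as 1 group C1qb was not called (adjusted p = 0.126). With the replicate number as a block none of the 3 C1q genes was called (adjusted p 0.0531 to 0.0769). The labels do not say whether the numbers pair the libraries. Without NMO_Br_mono replicate 2 the adjusted p was 0.0907 for C1qa and 0.196 for C1qb, and without NMO_Br_mono replicate 3 it was 0.0524 for C1qb and 0.106 for C1qc. Only C1qa was called without Nor_Bl_mono replicate 3 (adjusted p = 0.0728 for C1qb and 0.0506 for C1qc), and only C1qa and C1qb without NMO_Br_mono replicate 1 (adjusted p = 0.0792 for C1qc).

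Against a single blood group the same counts did not pass the adjusted threshold. Compared with NMO_Bl_mono, C1qa was at least 340-fold higher (adjusted p = 0.0890), C1qc at least 290-fold higher (adjusted p = 0.142), and C1qb had a log2 fold change of 6.15 ± 1.89 (adjusted p = 0.577). Compared with Nor_Bl_mono the bounds were 328-fold for C1qa (adjusted p = 0.0913), 280-fold for C1qc (adjusted p = 0.138) and 560-fold for C1qb (adjusted p = 0.0752). Both comparisons called 0 members, where 0.247% of all genes were called in each, and each shares its brain libraries with the other. At an unadjusted p under 0.05, 4 members were higher than in NMO_Bl_mono (the C1q genes and Cfp), against 1.48% of all genes. Against Nor_Bl_mono 5 members were higher (the C1q genes, Cfp and C3ar1), against 1.75% of all genes, and Cd55 was lower, against 4.07%. The C1q genes passed against Nor_Bl_mono without NMO_Bl_mono replicate 3 (adjusted p 0.00923 to 0.0175), and C1qb alone did so without NMO_Bl_mono replicate 1 (0.0315) or replicate 2 (0.0395). DESeq2 called 4 members against NMO_Bl_mono (the C1q genes and Cfp) and 3 against Nor_Bl_mono (the C1q genes).

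The counts of the 3 subunit genes were not in a fixed proportion. Of 1637 C1q counts in NMO_Br_mono replicate 1, C1qa held 36.7% (95% Wilson interval 34.4 to 39.0), C1qb 13.4% (11.8 to 15.1) and C1qc 49.97% (47.6 to 52.4). Of 6997 in replicate 2, the shares were 27.4% (26.4 to 28.5), 60.5% (59.4 to 61.7) and 12.1% (11.3 to 12.9). Of 3835 in replicate 3, they were 25.2% (23.8 to 26.6), 42.7% (41.2 to 44.3) and 32.1% (30.6 to 33.6). C1qb thus ran from the smallest share to the largest, and its intervals in the 3 libraries do not overlap. The reads carry no molecular identifiers, so the intervals cover counting error only. They leave out the unevenness of these libraries, in which 8.26% of well-counted genes were at or under the floor in NMO_Br_mono replicate 2. Its part in these shares was not tested. A share is that of 3' reads within 1 library and is not a measure of protein.

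**Figure D2:**
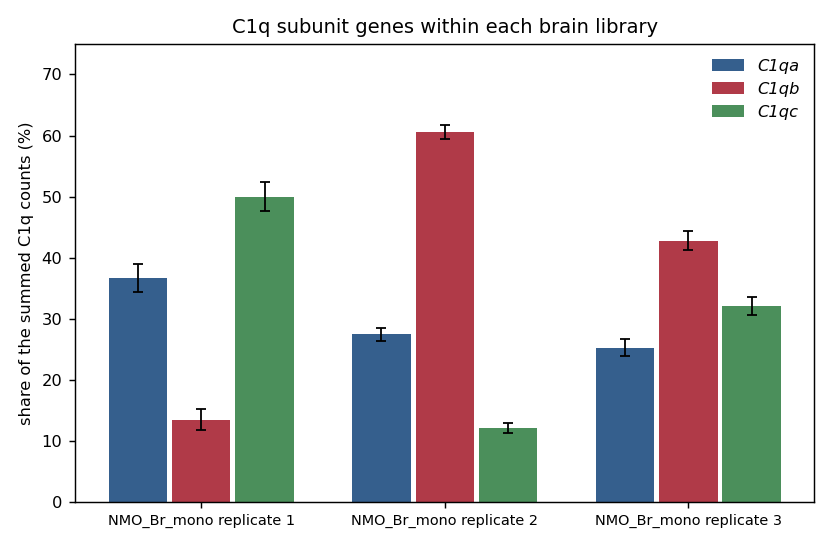
Share of the summed C1q counts (y axis, %) that each subunit gene takes within each of the 3 NMO_Br_mono libraries (x axis), with 95% Wilson intervals for counting error. C1qb takes 13.4%, 60.5% and 42.7% in replicates 1, 2 and 3, and C1qc takes 49.97%, 12.1% and 32.1%.

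The sort removed P2ry12+ cells, and markers of brain macrophages were read beside C1q. Of 12 microglia markers, 9 were tested, 0 passed the adjusted threshold and 6 had an unadjusted p under 0.05, all higher in NMO_Br_mono than in the mean of both blood groups, where 2.62% of all genes were. Their summed level was 143 to 396 CPM in Nor_Bl_mono, 0.0909 to 244 CPM in NMO_Bl_mono, and 1007, 1072 and 838 CPM in NMO_Br_mono replicates 1, 2 and 3. Without Cx3cr1, a fractalkine receptor that blood monocytes also carry, the sums were 0 to 74.1 CPM in blood and 464, 775 and 501 CPM in the brain libraries. Tmem119, a defining microglia gene, was at 78.4, 0 and 21.0 CPM in the brain libraries and at 0 in all blood libraries. P2ry12, the gate's own marker, was at 23.8, 69.7 and 9.95 CPM in the brain and at 0 to 43.4 CPM in blood. The summed C1q level was 185, 666 and 382 CPM in brain replicates 1, 2 and 3.

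Of 10 markers of border-associated macrophages, the resident macrophages of meninges and vessels, 6 were tested and none passed the adjusted threshold. Against the mean of both blood groups, 2 were higher at an unadjusted p under 0.05 (Ms4a7 and Clec4n, where 2.62% of all genes were), 1 was lower (Pf4, where 4.26% of all genes were), and 3 were higher than in all 6 blood libraries (where 3.57% of all genes were). Their sum was 108 to 567 CPM in blood and 267 to 519 CPM in the brain. Most of the blood sum was Pf4, which platelets also express, and without it the sums were 0 to 56.7 CPM in blood and 497, 388 and 267 CPM in the brain. Mrc1 was at 25.3, 62.1 and 37.0 CPM, Ms4a7 at 25.8, 51.9 and 14.5 CPM and Clec4n at 321, 156 and 124 CPM in brain replicates 1, 2 and 3, each above all its blood values. Of the markers not tested, Folr2 was at 0 in all 9 libraries, and Lyve1 was above the floor only in NMO_Br_mono replicate 2, at 34.7 CPM. Stab1 was at 0 in blood and had a mean of 61.9 CPM (SD 57.2) in the brain. Siglec1 had a mean of 3.66 CPM in Nor_Bl_mono and was at 0 in NMO_Bl_mono and NMO_Br_mono. Leaving out Cx3cr1 and Pf4 was chosen after their values were seen.

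Markers of other blood cells also differed between the tissues. Of 12 listed neutrophil markers, 9 were tested and none passed the adjusted threshold. Against the mean of both blood groups, 4 were higher at an unadjusted p under 0.05 (S100a8, S100a9, Ngp and Mpo, where 2.62% of all genes were) and Retnlg was lower (where 4.26% were). Their summed level was 444, 1875 and 1254 CPM in NMO_Br_mono replicates 1, 2 and 3 and 85.0 to 317 CPM in blood, with Retnlg and Mmp9 at 0 in all 3 brain libraries. Markers of lymphocytes, platelets and red cells summed to 2711 to 7910 CPM in blood and to 438, 317 and 156 CPM in the brain. Of 15 tested, 4 fell (Nkg7, Gzma, Ppbp and Hbb-bs), where 0.297% of all genes did. Markers of brain cells and endothelium summed to 53.2 to 248 CPM in blood and to 311, 88.5 and 987 CPM in the brain. Of 15 listed, 6 were tested and none passed the adjusted threshold. Only Flt1 had an unadjusted p under 0.05 against the mean of both blood groups, higher in the brain, where 2.62% of all genes were. Cldn5 was not tested and had a mean of 31.0 CPM in the brain and 0 in blood. The part of these cell types and of brain macrophages in the C1q counts and in the other members was not tested.

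Cfp encodes properdin, which stabilises the C3 convertase of the alternative pathway. It was counted in every library, at 46.6, 121 and 99.7 CPM in Nor_Bl_mono, 57.4, 59.6 and 59.3 CPM in NMO_Bl_mono, and 187, 307 and 247 CPM in NMO_Br_mono. All 3 brain values lay above the highest blood value. Cfp had a log2 fold change of 2.07 ± 0.64 against NMO_Bl_mono (adjusted p = 0.538), 1.47 ± 0.63 against Nor_Bl_mono (adjusted p = 0.708) and 1.77 ± 0.52 against the mean of both blood groups (adjusted p = 0.293). None of these passed the adjusted threshold by edgeR's test. Against the mean of both blood groups it did so with at least 10 counts required in every library, with DESeq2 and with limma-voom, at adjusted p = 0.0349, 0.0271 and 0.0484, and over 20 alternatives the adjusted p ran from 0.0271 to 0.729.

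C3, the central component that every pathway cleaves, was at 104, 214 and 188 CPM in Nor_Bl_mono, 106, 211 and 29.0 CPM in NMO_Bl_mono, and 123, 57.1 and 146 CPM in NMO_Br_mono. The 3 groups overlapped. Its log2 fold change was -0.09 ± 0.76 against NMO_Bl_mono and -0.63 ± 0.76 against Nor_Bl_mono, and the sign of the first turned with the scaling (0.03 with RLE factors), so no direction is given. Cfb, factor B of the alternative pathway, was low and scattered, at 3.45, 11.8 and 0 CPM in Nor_Bl_mono, 11.8, 3.05 and 27.0 CPM in NMO_Bl_mono, and 29.9, 0 and 10.1 CPM in NMO_Br_mono. Its log2 fold changes of -0.07 ± 2.84 and 1.38 ± 2.90 against the 2 blood groups were smaller than their errors. In GENCODE M21, Cfb (chromosome 17, 34856374 to 34862518) overlaps a readthrough gene, Gm20547, on the same strand, so its reads cannot be told from that gene's.

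The receptors for the cleavage fragments C3a and C5a, which guide and activate myeloid cells, had their highest group means in the brain, without passing the adjusted threshold by edgeR's test on all libraries. C3ar1, the C3a receptor, was at 13.9, 5.6 and 40.1 CPM in Nor_Bl_mono, 15.3, 10.1 and 189 CPM in NMO_Bl_mono, and 220, 122 and 202 CPM in NMO_Br_mono. Only NMO_Bl_mono replicate 3, the library with the most genes lost, reached into the brain range. C3ar1 had a log2 fold change of 3.19 ± 1.19 against Nor_Bl_mono (adjusted p = 0.708), 1.34 ± 1.12 against NMO_Bl_mono (adjusted p = 1) and 2.27 ± 0.91 against the mean of both blood groups (adjusted p = 0.618). With limma-voom C3ar1 passed against NMO_Bl_mono (adjusted p = 0.0424) and against the mean of both blood groups (adjusted p = 0.00691). Without NMO_Bl_mono replicate 3 the edgeR log2 fold change against the mean of both blood groups was 3.53 (adjusted p = 0.0375), and the log2 fold change of NMO_Bl_mono against Nor_Bl_mono turned from 1.85 to -0.64.

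C5ar1, the C5a receptor, was at 49.8, 0.21 and 40.9 CPM in Nor_Bl_mono, 37.5, 35.7 and 0 CPM in NMO_Bl_mono, and 177, 232 and 173 CPM in NMO_Br_mono. The 3 brain values were all over 3 times the highest blood value. In 2 blood libraries C5ar1 was at or under the floor. Its log2 fold changes were 2.99 ± 1.71 against NMO_Bl_mono (adjusted p = 0.860), 2.68 ± 1.69 against Nor_Bl_mono (adjusted p = 0.928) and 2.83 ± 1.33 against the mean of both blood groups (adjusted p = 0.618).

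Cd55 encodes decay-accelerating factor, a membrane regulator that takes the C3 convertases apart and so shields host cells. It was at 10.9, 8.77 and 2.04 CPM in Nor_Bl_mono, at 9.52, 4.79 and 0 CPM in NMO_Bl_mono, and had 0 counts in all 3 NMO_Br_mono libraries. It was the only member found in blood and in no brain library. With the brain at the floor, Cd55 was at least 23.6-fold lower than in Nor_Bl_mono (adjusted p = 0.708) and at least 15.5-fold lower than in NMO_Bl_mono (adjusted p = 0.802). These bounds hold only if a count of 0 means a level at or under the floor. That is uncertain for a gene this low in blood, as 8.26% of well-counted genes were at or under the floor in NMO_Br_mono replicate 2. Its paralog Cd55b was at 0.14, 3.59 and 0 CPM in Nor_Bl_mono, at 3.22, 0 and 0 CPM in NMO_Bl_mono and at 0 in the brain. Reads that align to both genes were counted, so the split between them is uncertain, and an annotated antisense gene, Gm16083, overlaps Cd55.

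The members were also counted by whether groups overlapped, beside the same over all genes tested. Against NMO_Bl_mono, 5 members (the C1q genes, Cfp and C5ar1) had all brain values above all values of the other group, where 6.30% of all genes did. Against Nor_Bl_mono it was 6 members, C3ar1 being the sixth, where 6.07% of all genes did, and Cd55 alone was lower without overlap, where 9.37% did. Against all 6 blood libraries it was 5 members, where 3.57% of all genes did. With an unadjusted p under 0.05 the same comparison gave 5 members higher (the C1q genes, Cfp and C3ar1), against 2.62% of all genes. The median log2 fold change of the 9 members was 2.07 against NMO_Bl_mono, 2.68 against Nor_Bl_mono and 2.27 against the mean of both, also with the genes absent from a group at their bound, where the medians of all genes tested were 0.05, -0.12 and 0.01. The members were chosen with earlier results known, so these counts are a description. C1qa and C1qc passed the filter only through the brain libraries, so their lack of overlap was fixed in advance.

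**Figure D3:**
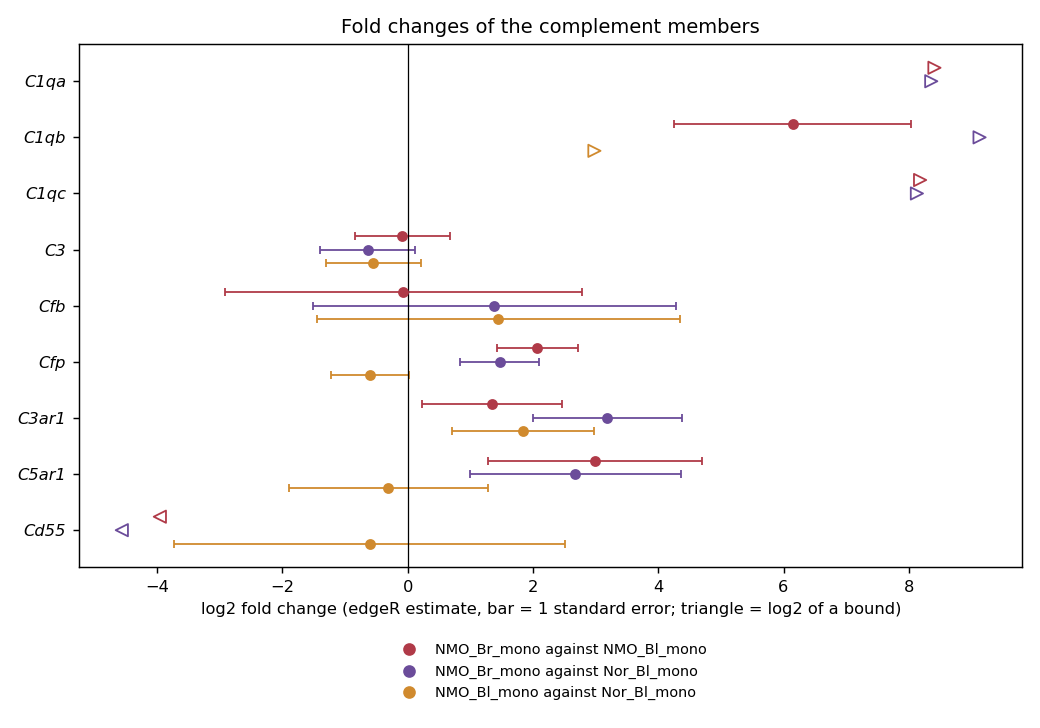
Log2 fold change (x axis) of each member (y axis) in the 3 comparisons between groups, as the edgeR estimate with a bar of 1 SE, or as an open triangle at the log2 of a bound where all libraries of a group are at or under the floor. The C1q genes and Cfp lie to the right in both brain comparisons and Cd55 to the left, while C3 and Cfb straddle 0.

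The comparison of the blood groups sets circulating monocytes of the model beside those of normal mice, which the study describes as non-treated. Without blood of mice given control IgG with hC, the effects of NMO-IgG, hC and the surgery cannot be told apart. NMO_Bl_mono against Nor_Bl_mono called 0 of 9 members, where 0% of all genes passed the adjusted threshold. At an unadjusted p under 0.05 only C1qb was higher, where 0.465% of all genes were. The C1qb counts were 51, 11 and 0 in NMO_Bl_mono and 0 in all Nor_Bl_mono libraries, at least a 7.9-fold difference (adjusted p = 1). DESeq2 called this gene, with an adjusted p of 0.0453. The log2 fold changes of the other tested members were -0.60 ± 0.62 for Cfp, -0.55 ± 0.76 for C3, 1.45 ± 2.90 for Cfb, 1.85 ± 1.13 for C3ar1, -0.31 ± 1.59 for C5ar1 and -0.60 ± 3.12 for Cd55. C1qa and C1qc had no count in either blood group and gave no comparison.

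Outside the 9 members, the pathway was read from lists of its initiators, central components, terminal components, receptors and regulators. Among these, 23 genes were tested, 9 of them the members, and none of the other 14 passed the adjusted threshold in any comparison by edgeR's test. Of 19 initiators of the classical and lectin pathways, 10 had a count in some library and 5 were tested, the C1q genes and the low-count C1rl and C4b. C2, Masp1, Mbl1, Mbl2 and Fcna had no count in any library. C4b, which can share reads with its near-identical copy C4a, was at 6.47 CPM in NMO_Br_mono replicate 2, at 1.54 and 4.90 CPM in NMO_Bl_mono replicates 1 and 2, and at 0 in the other 6 libraries. Of 4 central and alternative pathway genes, Cfd had no count and the other 3 are members. None of 7 terminal components was tested, and 6 of them had no count.

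Of 12 receptors, 10 were tested, and 3 had an unadjusted p under 0.05 against the mean of both blood groups, all higher in NMO_Br_mono, where 2.62% of all genes were. Cd93, a C-type lectin first described as a C1q receptor, was at 58.1, 115 and 45.98 CPM in Nor_Bl_mono, 87.4, 170 and 107 CPM in NMO_Bl_mono, and 439, 405 and 423 CPM in NMO_Br_mono. The brain values all lay above those of blood, with a log2 fold change of 2.17 ± 0.44 against the mean of both blood groups (adjusted p = 0.0535). Lrp1, an uptake receptor that works with calreticulin on C1q-tagged targets, was at 125 to 246 CPM in blood and at 503, 433 and 304 CPM in the brain, with a log2 fold change of 1.04 ± 0.37 (adjusted p = 0.565). The third was C3ar1.

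Itgam, the alpha chain of complement receptor 3, was at 299 to 392 CPM in blood and at 652, 415 and 520 CPM in the brain, with a log2 fold change of 0.66 ± 0.32 (adjusted p = 0.618). Itgax, the alpha chain of complement receptor 4, was at 13.5 to 109 CPM in blood and at 44.8, 185 and 199 CPM in the brain, and so overlapped. Itgb2, the beta chain of both, was at 210 to 614 CPM in blood and 289, 214 and 357 CPM in the brain. Calr, calreticulin, was at 324 to 587 CPM in blood and at 888, 327 and 632 CPM in the brain. Vsig4, a receptor for C3 fragments on resident macrophages, had no count.

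Of 16 regulators counted here, 15 were listed and 5 were tested (Cd55, Cd59a, Cr1l, Clu and Csmd2), and none but Cd55 had an unadjusted p under 0.05 in a comparison with the brain. Cd46, Cd59b, Cfi and C4bp had no count in any library. Clu, clusterin, which inhibits assembly of the terminal complex, was at 162, 20.6 and 46.6 CPM in Nor_Bl_mono, 126, 84.8 and 0 CPM in NMO_Bl_mono, and 21.3, 0 and 29.6 CPM in NMO_Br_mono. The groups overlapped, and its log2 fold change against the mean of both blood groups was -2.11 ± 1.87 (adjusted p = 1.00).

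**Figure D4:**
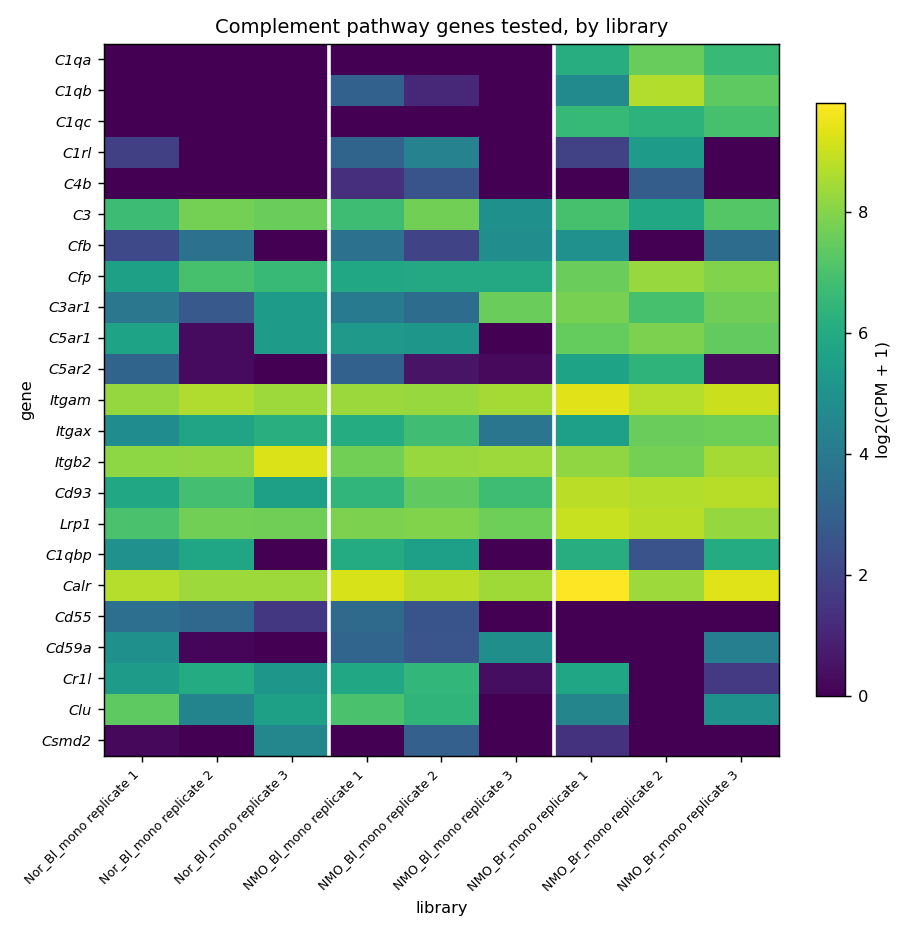
Level, as log2(CPM + 1) by colour, of the 23 complement pathway genes tested (y axis, initiators at the top, then central components, receptors and regulators) in the 9 libraries (x axis, white lines between groups). The C1q genes are dark in blood and bright in the brain libraries, Cd93 is brighter in each brain library than in any blood library, and Cd55, the uppermost of the regulators, is dark in all 3 brain libraries.

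For each member, the genes with the most similar profile were sought among about 5600 genes with a mean of at least 20 CPM, by the root mean square difference of centred log2(CPM + 1) over the 9 libraries. C1qa lay closest to C1qc (0.431), Fcrls (0.443) and Ccl7 (0.483), and C1qc lay closest to Ccl7 (0.349), C1qa (0.431) and Fcrls (0.439). Fcrls, a microglia marker, was at 0 in blood and at 52.7, 77.5 and 50.5 CPM in the brain. Ccl7, a monocyte chemokine, was at 0 in blood and at 141, 143 and 210 CPM in the brain. C1qb had no profile that near, with Pmepa1 (0.781), Cd34 (0.921) and Ptprb (0.979) the closest. Cfp lay closest to Lgals8 (0.321), C3 to Ptp4a1 (0.356), C3ar1 to Cd63 (0.597), C5ar1 to F11r (0.631), Cd55 to Nfkbia (0.714) and Cfb to Ap5z1 (0.733). With a pseudocount of 0.1 the 3 nearest genes were the same for C1qa, C1qc, C3, Cfp and C3ar1. Genes that are 0 in all blood libraries are near one another by that alone.

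**Figure D5:**
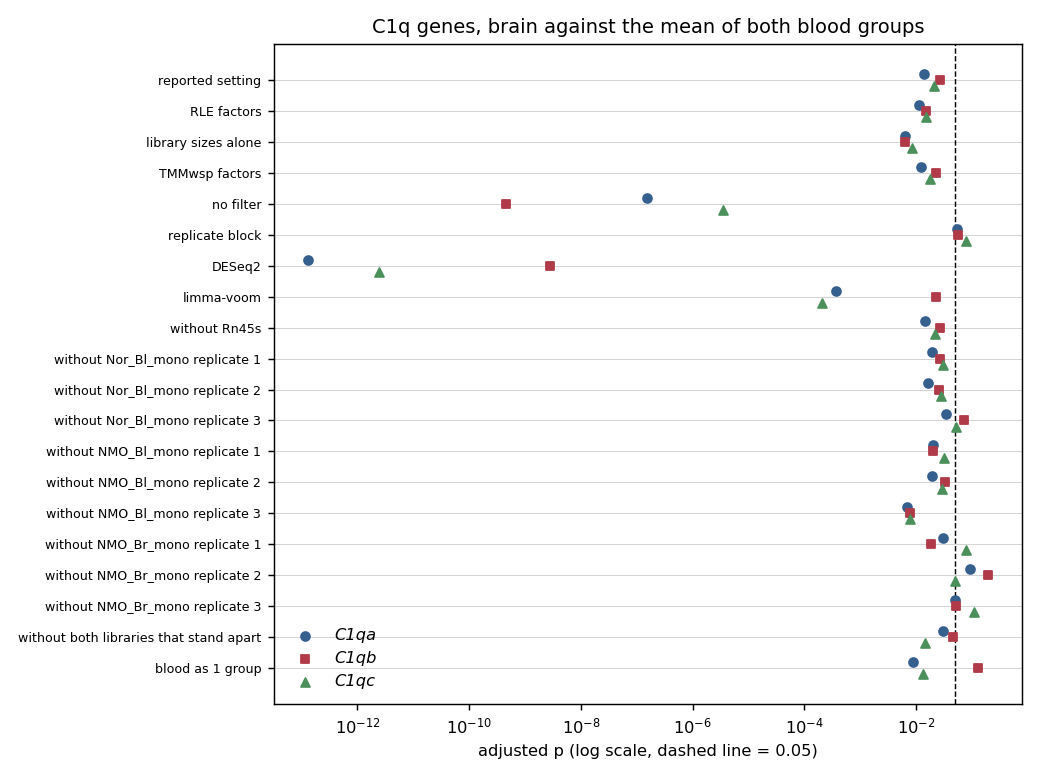
Adjusted p (x axis, log scale, dashed line at 0.05) of the C1q genes in NMO_Br_mono relative to the mean of both blood groups, under the reported setting and each alternative that gives a value (y axis). With the replicate number as a block all 3 lie just above the line (0.0531 to 0.0769), and without NMO_Br_mono replicate 2 only C1qc stays below it.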

How the data were processed

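Monocytes of 9 libraries were sequenced with QuantSeq 3' kits. The authors used Bowtie2 for alignment of the single-end reads and bedtools coverage for counting, multiple alignments included, and deposited raw read counts per gene symbol (mm10 per the labels; tool versions and annotation are not given in the sources used here). Their TMM and CPM step is not in the deposited counts. Groups come from the sample labels.

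For 35 repeated symbols the highest-count entry was used. Ribosomal Rn45s took 28.4 to 43.6% of each library. edgeR 4.0.16 in R 4.3.3 (TMM, filterByExpr, glmQLFit and glmQLFTest) was fitted on all 9 libraries at once, with Benjamini-Hochberg adjustment. The threshold for a call was an adjusted p of 0.05. Each SE of an edgeR log2 fold change was its absolute value over the square root of the test's F statistic. It was not an error taken from the fit itself. Alternatives used DESeq2 1.42.0, limma 3.58.1 (voom with sample weights), other scalings, filters and samples. Genes were named by a rule: all members, other complement genes with an unadjusted p under 0.05 or at least 100 CPM in a group, the 3 nearest profiles and marker genes. C1rl, C4b, Cd59a, Cr1l, Clu, Csmd2 and complement genes with no count were named outside it, after their values were seen. The members and lists were chosen with earlier results of these data known. p-values cover the spread between the pools of 5 mice. The test was tried on data simulated with less spread than the common dispersion of 2.87 found here. That trial does not show how the test performs on counts as uneven as these. Positions are from GENCODE M21 and promoters from RefSeq, with an entry for 7 of the 9 members (none for C1qa and Cfb). A gene is not reported here and stays out of the list counts.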

Additional observations from a re-analysis of the deposited data

How the results depend on the processing

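Members called against the mean of both blood groups numbered 3 (the C1q genes), and 1 with at least 10 counts in every library (Cfp, as that filter removes genes at 0 in blood), 5 with limma-voom, 4 with DESeq2, 2 with the blood libraries as 1 group, 4 without the 2 libraries that lost most genes, and 1 to 4 when single libraries were left out. Against NMO_Bl_mono it was 0, but 3 with no filter, 4 with DESeq2 and 3 with limma-voom. Against Nor_Bl_mono it was 0, but 1 with library sizes alone, 3 with no filter, 3 with DESeq2, 2 with limma-voom, 3 with only the groups compared, 2 without those 2 libraries and 0 to 3 when single libraries were left out. For NMO_Bl_mono against Nor_Bl_mono it was 0, and 1 with DESeq2. The 2 alternatives without NMO_Bl_mono replicate 3 and NMO_Br_mono replicate 2 together and with blood as 1 group were chosen after seeing the data.

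Genes called against NMO_Bl_mono were 25, and 110 with no filter, 16 with at least 10 counts, 336 with DESeq2, 51 with limma-voom, 7 with only the groups compared, 61 without those 2 libraries and 15 to 36 with single libraries left out. Against Nor_Bl_mono they were 25, and 115 with no filter, 366 with DESeq2, 107 without those 2 libraries and 11 to 62. Between the blood groups they were 0, and 2 with no filter and 69 with DESeq2. Against the mean of both blood groups they were 44, and 68 with library sizes alone, 181 with no filter, 495 with DESeq2, 122 with limma-voom, 128 without those 2 libraries and 21 to 90.

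Same-numbered libraries of different groups correlated at -0.0102 to 0.116 and differently numbered ones at -0.0957 to 0.0301. The labels do not say what the numbers mark. With the replicate number as a block the members called against the mean of both blood groups went from 3 to 0 (adjusted p 0.0531 for C1qa, 0.0554 for C1qb and 0.0769 for C1qc), and 34 genes were called in place of 44. Of the 9 libraries, 7 correlated best with a library of their own number, so pairing is neither shown nor excluded.

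Directions that turned were all of members that did not pass the test. C3 against NMO_Bl_mono went from -0.09 to 0.0252 with RLE factors, 0.00046 with TMMwsp factors, 0.0153 with at least 10 counts, 0.12 with the block and 0.0252 with DESeq2, and ran from -0.53 to 0.70 with single libraries left out. Cfb against NMO_Bl_mono went from -0.07 to 0.42 with limma-voom and 1.44 without those 2 libraries, and from -1.47 to 0.86 over single libraries. For NMO_Bl_mono against Nor_Bl_mono, C5ar1 went from -0.31 to 2.76 with limma-voom and 0.28 without those 2 libraries (-0.89 to 0.28 over single libraries), and C3ar1 from 1.85 to -0.64 without them (-0.64 to 2.86). Over single libraries Cfb ran from -0.0248 to 2.94 against Nor_Bl_mono and from -0.75 to 1.43 against the mean of both blood groups, where C3 ran from -0.62 to 0.0426. The cause of these changes was not tested. All members passed the filter, so the test kept for members outside it was not run. At 0 counts, a C1q level under the floor in blood was not detectable at this depth.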
